A study of Mus musculus with 8 samples.

Results

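Nuclear genes for subunits of the mitochondrial respiratory chain were compared between follicular helper T cells (Tfh) and T cells cultured as Th1, Th2 or Th17 cells. A gene was a member if its platform symbol began with Ndufa, Ndufb, Ndufc, Ndufs, Ndufv, Uqcr, Cox4i, Cox5, Cox6, Cox7, Cox8 or Atp5, or was Sdha, Sdhb, Sdhc, Sdhd, Cyc1 or Cycs, and Ndufaf genes were left out. This gave 84 of the 18193 genes that the arrays name, each read from its probe set of highest mean value on the 8 arrays. Of these, 77 passed the filter on low values (above 3.13 log2 units, the 50th percentile of all values, on at least 2 arrays), and 7 did not. The tested members were 33 genes of complex I, 4 of complex II, 9 of complex III, cytochrome c, 13 genes of complex IV and 17 of complex V.

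The series holds 2 Affymetrix arrays for each of 4 groups of C57BL/6 mouse CD4 T cells. Tfh cells were CD4+CXCR5+ splenocytes sorted by flow cytometry 7 days after immunization with KLH (keyhole limpet hemocyanin), and they were stimulated again with anti-CD3 for 4 h before RNA was prepared. Th1, Th2 and Th17 cells were grown for 5 days from naive CD4 T cells from spleen and lymph nodes of OT-II T cell receptor transgenic mice aged 6 to 8 weeks, with OT-II peptide and antigen-presenting cells. Th1 cultures received IL-12 and anti-IL-4, Th2 cultures received IL-4 and anti-IFNg, and Th17 cultures received IL-6, TGFb, anti-IL-4 and anti-IFNg. The T cell receptor transgene, antigen, source, sort, time and restimulation thus all changed together between Tfh and the cultured cells and cannot be told apart. The labels do not say that the 2 arrays of a group came from separate animals or cultures, so p-values measure only the spread between these samples, which may be technical.

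The respiratory chain passes electrons from NADH through complex I, or from succinate through complex II, to complex III. Cytochrome c carries them on to complex IV, which reduces oxygen, and complex V (ATP synthase) uses the proton gradient that complexes I, III and IV build. T cells that are activated grow on both glycolysis and respiration, and most chain subunits are encoded in the nucleus while a few, such as ND5 of complex I, are encoded in mitochondrial DNA.

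Some features of the arrays bear on every Tfh value. The Tfh arrays were deposited on a higher distribution: the 90th percentile of all probe sets was 10.61 to 10.62 log2 units on them, against 9.60 to 9.63 on the cultured arrays, and the median tested gene differed by 0.84. The main results are therefore given in 3 scalings: the values as deposited, quantile normalization over the 8 arrays, and each array shifted to the same median. Cxcr5, Bcl6 and Pdcd1, which define Tfh cells, were all called higher in Tfh as deposited, where 43.7% of all tested genes were. The cells were sorted on CD4 and CXCR5, so Cxcr5 was selected by the sort and adds nothing on their identity. The summed T cell genes, Cd4 among them, were at 14.99 to 15.09 in Tfh, against 13.68 to 14.28 in the cultured arrays. Ifng was highest in Th1 (15.39 and 15.07), Il4 and Il13 in Th2 (Il4 15.20 and 15.57) and Il17a in Th17 (14.35 and 13.93). Ifng was also at 14.12 on the first Th2 array and 13.30 on the first Th17 array. The lineage factors overlapped with Tfh. Tbx21 measured 10.66 and 10.59 in Tfh, against 10.89 and 9.43 in Th1. Gata3 measured 10.67 and 10.52 in Tfh, against 10.44 and 11.13 in Th2. All 6 neutrophil genes listed (among them S100a8, Ngp and Ltf) were called higher in Tfh too, with a summed log2 level of 16.07 to 16.13 on the Tfh arrays, against 5.09 to 11.84 on the cultured arrays, where the first Th2 array was the highest and Camp and Ltf lay below the filter. The macrophage and dendritic cell genes summed to 11.51 to 11.59 in Tfh, with Itgax and Mrc1 below the filter, against 5.46 to 11.30 in the cultured arrays. Most of the Tfh sum was Lyz2 (11.42 and 11.31). Of these 6 genes 1 was called higher and 2 lower in Tfh, where 43.7% and 6.66% of all tested genes were. Csf1r, Cd68 and Adgre1 were higher on the first Th2 array than in Tfh. The B cell genes, 2 of them called higher in Tfh, summed to 9.80 to 9.82, against 5.46 to 10.19, and the proliferation genes to 13.75 to 13.76, against 13.98 to 14.82. Of the 4 proliferation genes on the array 2 were called lower in Tfh. Mki67 (12.41 and 12.39 in Tfh, 11.73 to 12.94 in the cultured arrays) and Top2a (12.10 and 12.13, 11.91 to 12.86) lay inside the cultured range. The part of these cell types in the results was not tested. In these bulk samples fewer cells of a type and less RNA per cell cannot be told apart. Of the Th1 arrays, the second had an Il4 value of 10.60, against 6.11 on the first. Of 11178 tested genes, 11 differed by over 1 log2 unit between the Tfh arrays, 1435 between the Th1, 696 between the Th2 and 1339 between the Th17 arrays.

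As deposited, respiratory chain genes stood close to 0 between Tfh and the cultured types, while most other tested genes were higher in Tfh. The filter on low values could admit a gene through the 2 Tfh arrays alone, and they lay on a higher distribution. Tested low genes were thus partly chosen for being higher in Tfh. Called genes had a Benjamini-Hochberg adjusted p below 0.05 in limma's moderated test and differed by at least 1 log2 unit (2-fold). By this rule 2 members rose in Tfh, Uqcrc1 and Ndufa4, and 2 fell, Cox7a1 and Cox6b2, and 73 were not called. Cox7a1 and Cox6b2 passed the filter only through the cultured arrays, so their direction was fixed. Over all tested genes 43.7% were called higher and 6.66% lower in Tfh. The members' median difference was 0.07 log2 units (quartiles -0.19 and 0.34), against 0.84 for all tested genes (quartiles 0.03 and 1.75), and 75 of the 77 members lay below the median gene. Without the fold threshold 20 members were higher and 11 lower at an adjusted p below 0.05, against 59.1% and 12.5% of all tested genes. The 95% interval of the difference lay within 1 log2 unit of 0 for 66 of 77 members, against 26.2% of all tested genes. Both Tfh arrays lay above all 6 cultured arrays for 22 members and below all of them for 14, against 60.5% and 13.8% of all tested genes.

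**Figure D1:**
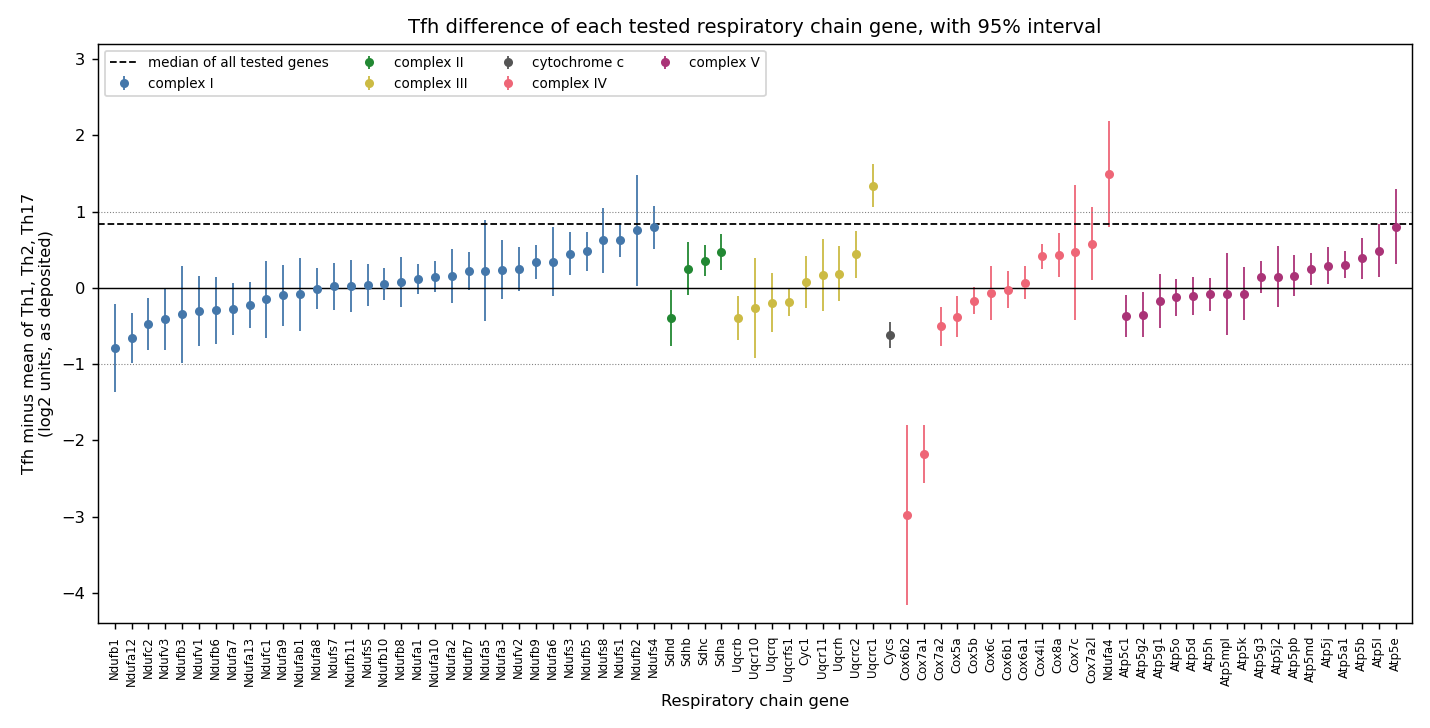
Difference of each tested respiratory chain gene, Tfh minus the mean of Th1, Th2 and Th17 (vertical axis, log2 units as deposited), with genes on the horizontal axis grouped by complex. Points are limma estimates from 2 arrays per group, bars are 95% intervals, dotted lines mark 1 log2 unit either way, and the dashed line at 0.84 is the median tested gene, which only Uqcrc1 and Ndufa4 exceed.

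Tested genes with other mean levels shifted by other amounts, in level bins chosen after seeing the data. Over all 1805 tested genes with a mean of 10 to 12 log2 units the median difference was 0.63, and the 31 members among them had a median of 0.08. Over all 627 genes at 12 and above it was 0.21, and the 42 members among them had a median of 0.07. Ranked within each array among all probe sets, which no rescaling of an array changes, the median member stood at the 96.5 and 96.4 percentile on the Tfh arrays and between 97.1 and 97.8 on the cultured arrays. The median of all tested genes also stood lower on the Tfh arrays, at 77.9 and 77.7, against 78.7 to 79.2 on the cultured arrays. The lower rank is thus not particular to the members.

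How many members were called, and in which direction, depended on the scaling. After quantile normalization the median member was 0.56 log2 units lower in Tfh (median gene -0.17), with 0 members called higher and 10 lower, against 15.7% higher and 22% lower of all tested genes. The 10 were Cox6b2, Cox7a1, Ndufa12, Ndufa7, Ndufb1, Ndufb3, Ndufv1, Ndufv3, Sdhd and Uqcr10. For Ndufa12, Ndufa7, Ndufv1, Sdhd and Uqcr10 another probe set that passed the filter had the opposite sign as deposited. For Uqcr10 the kept set differed by -0.27 and the others by 0.96 and 0.77. The rest of the 10 had a single probe set. With each array shifted to the same median the median member was 1.13 log2 units lower (median gene -0.35), with 0 called higher and 49 lower, against 14.8% higher and 28.9% lower of all tested genes. The members' median lay below that of all tested genes by 0.77 log2 units as deposited and by 0.39 after quantile normalization; a shift of whole arrays cannot change this gap. Over all genes, without the filter on low values, the gap as deposited was 0.083.

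**Figure D2:**
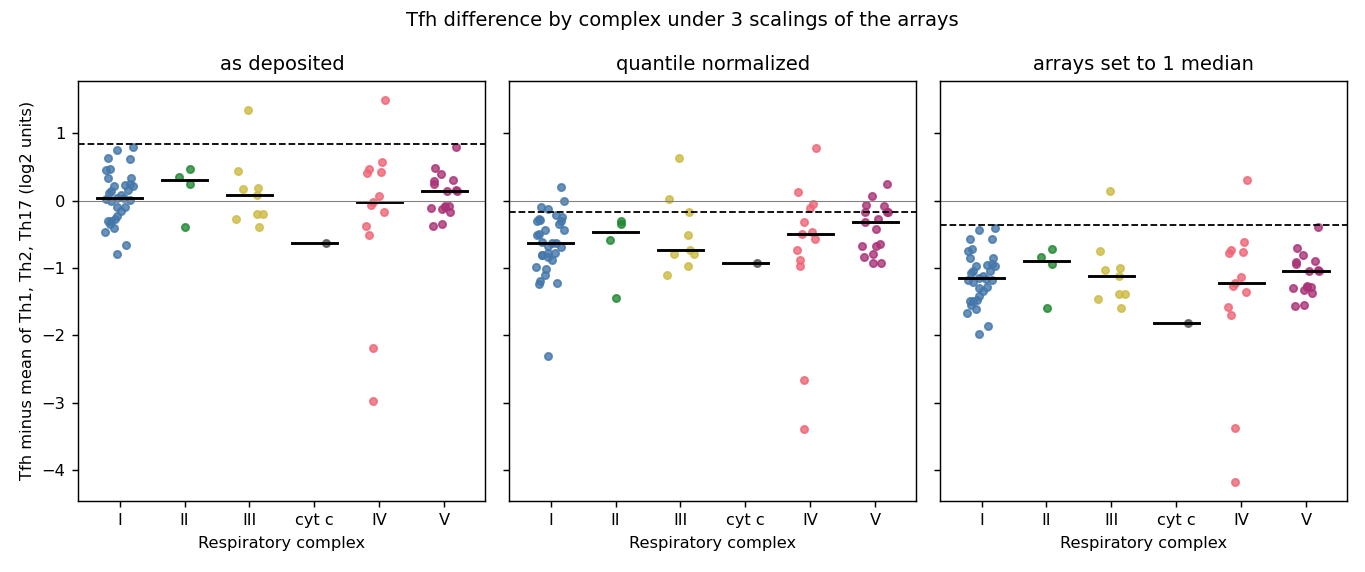
Difference of each member, Tfh minus the mean of the cultured types (vertical axis, log2 units), by complex (horizontal axis), with values as deposited, quantile normalized, and with all arrays set to the same median. Points are genes, black bars are the median of a complex, and the dashed line is the median of all tested genes, which was 0.84, -0.17 and -0.35 in the 3 panels; the median of every complex lies below it in each.

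Complex I oxidizes NADH and is the entry point for most electrons. Of its 33 tested genes 0 were called in Tfh against the mean of the cultured types as deposited (median 0.05), where 9 passed limma's adjusted p without the fold threshold. After quantile normalization 6 were called lower (median -0.62), against 22% of all tested genes. With each array shifted to the same median 21 were (-1.15), against 28.9%. As deposited 43.7% of all tested genes were called higher and 6.66% lower (59.1% and 12.5% without the fold threshold). The 6 catalytic core genes had a median difference of 0.35 as deposited and the 27 accessory genes one of 0.04. Ndufs1, an iron-sulfur subunit of the core, measured 10.90 and 10.88 log2 units in Tfh, against 10.21 and 10.28 in Th1, 10.26 and 10.20 in Th2 and 10.21 and 10.40 in Th17. Both Tfh arrays lay above all 6 cultured arrays, and the difference was 0.63 log2 units (SE 0.09, limma adjusted p = 0.00141), short of the fold threshold and -0.28 after quantile normalization. Ndufv1, the subunit that binds NADH, measured 10.56 and 10.59 in Tfh and between 10.51 and 11.19 in the cultured arrays. The groups overlapped, with a difference of -0.30 as deposited (SE 0.19, limma adjusted p = 0.196) and -1.24 after quantile normalization (limma adjusted p = 0.00185). The other 2 probe sets of Ndufv1 had the opposite sign as deposited (0.58 and 0.14). Ndufs4, an accessory subunit needed for full complex I assembly, differed by 0.79 as deposited (SE 0.11, limma adjusted p = 0.00137) and by -0.01 after quantile normalization. ND5, whose gene lies in mitochondrial DNA and which is not a member, measured 14.71 and 14.68 in Tfh and between 13.26 and 13.57 in the cultured arrays. It was called higher in Tfh both as deposited (1.32, SE 0.08, limma adjusted p = 5.6e-05) and after quantile normalization (1.17), and was 0.12 higher with a limma adjusted p of 0.242 when each array was shifted to the same median.

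Complex II, succinate dehydrogenase, also works in the tricarboxylic acid cycle. None of its 4 genes was called as deposited, while 1 was called lower in each of the other scalings. Over all tested genes 43.7% were called higher as deposited, and 22% and 28.9% lower in those scalings. Sdha, the flavoprotein that oxidizes succinate, measured 11.39 and 11.33 in Tfh, against 10.68 to 11.06 in the cultured arrays, a difference of 0.47 (SE 0.10). Sdhd, a membrane anchor, measured 9.97 and 9.96 in Tfh, against 10.19 to 10.69 in the cultured arrays, and differed by -0.40 (SE 0.15, limma adjusted p = 0.0551). On these probe sets the Tfh arrays lay above all cultured arrays for Sdha and below all of them for Sdhd. The other Sdhd probe set that passed the filter went the other way (0.61), with both Tfh arrays above all cultured ones, so the direction for Sdhd depends on the probe set. Sdhd differed by -1.45 after quantile normalization and was then called lower, and Sdha differed by -0.30. The other Sdha probe sets that passed the filter had larger differences as deposited than the kept one (1.19 and 1.88).

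In complex III 1 of 9 genes was called higher as deposited, 1 lower after quantile normalization and 7 lower with each array shifted to the same median. Over all tested genes these shares were 43.7%, 22% and 28.9%. Uqcrc1, a core protein of the complex, measured 11.84 and 11.72 log2 units in Tfh, against 10.44 and 10.63 in Th1, 10.60 and 10.34 in Th2 and 10.35 and 10.24 in Th17. Every Tfh value lay above every cultured value, with a difference of 1.34 log2 units (SE 0.11, limma adjusted p = 0.000168). The difference was 0.63 after quantile normalization and 0.15 with each array shifted to the same median (limma adjusted p = 0.271), so it was not called there; over all alternatives its adjusted p ran between 1.91e-05 and 0.271. The partner core protein Uqcrc2 differed by 0.44 as deposited. The redox subunits were closer to 0 or below it: Cyc1, cytochrome c1, differed by 0.08 and Uqcrfs1, the Rieske iron-sulfur protein, by -0.19.

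Cycs, somatic cytochrome c, measured 13.73 and 13.71 in Tfh, against 14.35 and 14.45 in Th1, 14.50 and 14.39 in Th2 and 14.17 and 14.17 in Th17. Both Tfh arrays lay below all cultured arrays by a difference of -0.62 log2 units (SE 0.07, limma adjusted p = 0.000507), which is past the p threshold but not the fold threshold; with each array shifted to the same median it was called lower (-1.81). The other 2 of its probe sets that passed the filter showed the same direction, with differences of -1.09 and -0.94. Cytochrome c shuttles electrons to complex IV and, when released from mitochondria, helps start apoptosis.

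Complex IV held 3 of the 4 members called as deposited, where 43.7% of all tested genes were called higher and 6.66% lower. Of its 13 genes, 2 were called lower after quantile normalization, against 22% of all tested genes. With each array shifted to the same median 8 were, against 28.9%. Cox7a1, an isoform best known in heart and skeletal muscle, measured 2.78 and 2.76 in Tfh, against 4.56 and 4.73 in Th1, 4.67 and 4.85 in Th2 and 5.20 and 5.69 in Th17. Cox6b2, an isoform best known in testis, measured 2.20 and 2.83 in Tfh, against 6.47 and 5.59 in Th1, 5.12 and 4.85 in Th2 and 6.26 and 4.66 in Th17. For both genes the Tfh and cultured values did not overlap, and the Tfh values lay below the filter on low values. They passed that filter only through the cultured arrays, so they had to differ and their direction was fixed. The mean of the cultured arrays lay 3.54-fold above the filter value of 3.13 for Cox7a1 and 5.15-fold above it for Cox6b2. Single cultured arrays came closer to the filter, at 4.56 for Cox7a1 in Th1 and 4.66 for Cox6b2 in Th17. These folds were not tested. The fitted differences were -2.18 (SE 0.15, limma adjusted p = 8.78e-05) and -2.98 (SE 0.48, limma adjusted p = 0.00211). They rest on Tfh values below the filter, and since the direction was fixed, their p-values give no support for a difference. Cox7a1 was not tested when genes had to exceed the 65th percentile on at least 2 arrays. Their widely expressed counterparts were closer to 0 as deposited: Cox6b1 differed by -0.02 (SE 0.10), Cox7a2 by -0.50 (SE 0.10, limma adjusted p = 0.00581) and Cox7a2l by 0.58.

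Ndufa4 was named for complex I but is a subunit of complex IV. It measured 11.94 and 11.82 in Tfh, against 9.78 and 10.65 in Th1, 11.01 and 10.57 in Th2 and 9.88 and 10.43 in Th17, so that the Tfh arrays lay above every cultured array. The difference was 1.50 (SE 0.28, limma adjusted p = 0.00403) as deposited, 0.79 after quantile normalization (limma adjusted p = 0.0426) and 0.30 with each array shifted to the same median. It was not called in those 2 scalings, and its adjusted p ran between 0.000248 and 0.376 over all alternatives. Cox4i1, the widely expressed form of subunit 4, differed by 0.41 (SE 0.07, limma adjusted p = 0.00221), while its alternative form Cox4i2 lay below the filter on all arrays, at 2.14 to 2.41. The tissue isoforms Cox6a2, Cox7b2, Cox8b and Cox8c and the Ndufa4 relative Ndufa4l2 were not tested either. The remaining untested member was Ndufb4, whose single named probe set read 2.10 to 2.15 on all arrays.

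**Figure D3:**
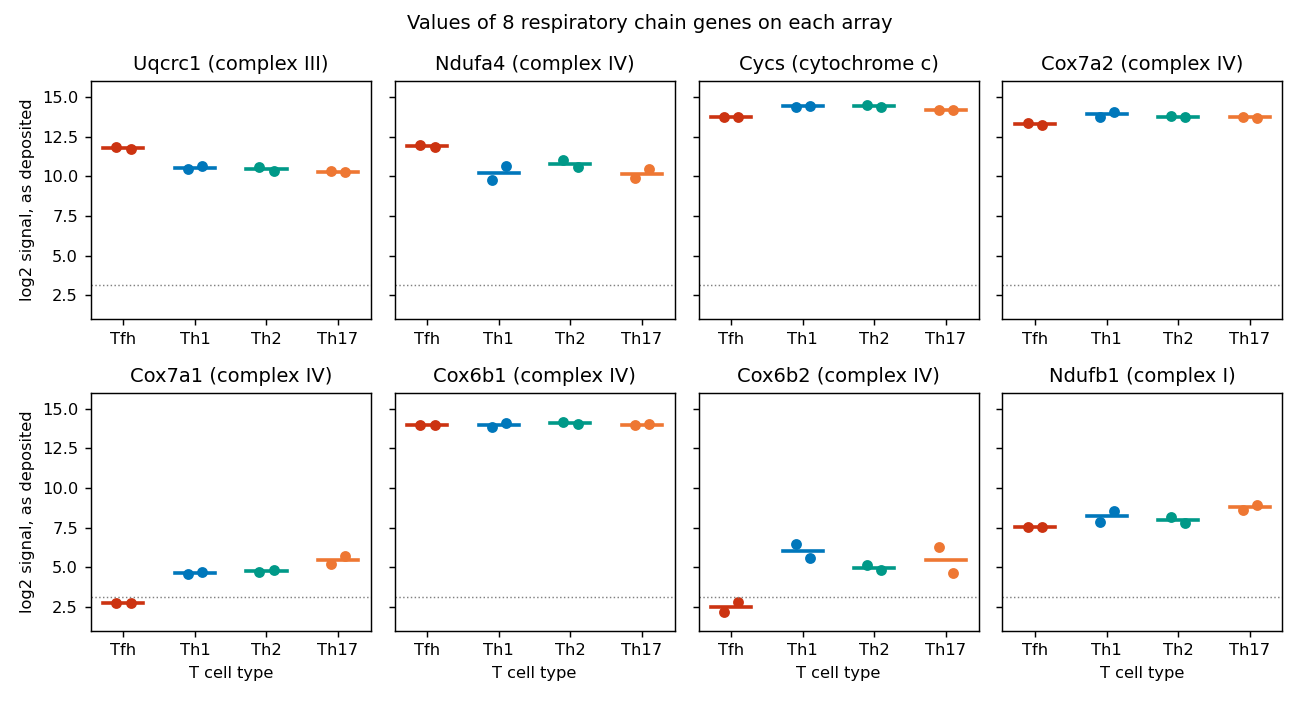
Deposited log2 signal (vertical axis) on each array for 8 members in Tfh, Th1, Th2 and Th17 cells (horizontal axis). Points are arrays, bars are means of 2 arrays, and the dotted line is the filter at 3.13, below which the Tfh values of Cox7a1 (2.78 and 2.76) and Cox6b2 (2.20 and 2.83) lie.

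None of the 17 complex V genes was called as deposited (median 0.15) or after quantile normalization (-0.31). With each array shifted to the same median 11 were called lower (-1.05). Over all tested genes 43.7% were called higher as deposited, and 22% and 28.9% lower in the other scalings. The catalytic subunits Atp5a1 and Atp5b differed by 0.31 and 0.39, both past the p threshold (limma adjusted p = 0.0109 and 0.0194) but not the fold threshold. Atp5e, the small epsilon subunit of the F1 head, was highest at 0.80 (SE 0.20). The 3 genes that encode the same c ring protein differed among themselves: Atp5g2 measured 12.20 and 12.15 in Tfh, against 12.38 to 12.74 in the cultured arrays (-0.35, SE 0.12), while Atp5g1 differed by -0.17 and Atp5g3 by 0.15. A second Atp5g2 probe set that passed the filter had the opposite sign, with 7.03 and 6.96 in Tfh, against 5.03 to 5.74 in the cultured arrays, so this contrast rests on the kept probe set.

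Promoters are shown for 3 members named above: Uqcrc1 (called higher in Tfh as deposited), Cycs (lower as deposited, by less than the fold threshold) and Cox7a1 (below the filter in Tfh). Each run holds 250 bases before and 50 bases after the gene's start, from RefSeq's table for GRCm38.p6, at chr9:108936398-108936697 on the plus strand for Uqcrc1, chr6:50566520-50566819 on the minus strand for Cycs and chr7:30183921-30184220 on the plus strand for Cox7a1. Capitals mark the motif GCATGCGC, the core bound by NRF1 (nuclear respiratory factor 1, which drives many respiratory genes), on either strand; overlapping matches on both strands merge into a longer run.
Uqcrc1: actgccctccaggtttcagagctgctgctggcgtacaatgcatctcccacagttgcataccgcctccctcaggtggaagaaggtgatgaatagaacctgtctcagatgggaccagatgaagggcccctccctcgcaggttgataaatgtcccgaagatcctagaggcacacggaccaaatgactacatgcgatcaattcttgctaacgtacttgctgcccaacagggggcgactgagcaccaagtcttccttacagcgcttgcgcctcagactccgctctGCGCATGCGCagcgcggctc
Cycs: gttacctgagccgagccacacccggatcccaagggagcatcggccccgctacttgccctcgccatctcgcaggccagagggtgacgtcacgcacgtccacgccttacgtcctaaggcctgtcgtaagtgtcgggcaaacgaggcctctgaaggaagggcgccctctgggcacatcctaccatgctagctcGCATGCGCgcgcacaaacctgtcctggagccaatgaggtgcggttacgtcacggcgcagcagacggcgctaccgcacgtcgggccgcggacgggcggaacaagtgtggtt
Cox7a1: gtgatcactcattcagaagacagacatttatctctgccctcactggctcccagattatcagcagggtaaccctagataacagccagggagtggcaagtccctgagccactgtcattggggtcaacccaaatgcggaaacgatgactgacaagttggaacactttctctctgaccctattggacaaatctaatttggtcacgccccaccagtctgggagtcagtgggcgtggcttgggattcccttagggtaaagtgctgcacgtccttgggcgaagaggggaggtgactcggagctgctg

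Promoters were matched for 68 of the 84 members, and letters were searched on both strands. GCATGCGC occurred in 10 of them (14.7%), against 3.05% of the 27025 promoters of the table. CCGGAAG, an ETS core to which GABPA binds, occurred in 17 (25%, against 9.93%), and AAGATGGC, a YY1 core, in 9 (13.2%, against 3.19%). Members with any of the 3 had a median Tfh difference of 0.17 (30 tested), and those with none one of -0.12 (35 tested). The Cox7a1 window holds none of these letters. The factor genes themselves were called higher in Tfh as deposited, as were 43.7% of all tested genes: Nrf1 by 1.20, Gabpa by 1.27 and Yy1 by 1.33. None of these 3 was called after quantile normalization. With each array shifted to the same median they differed by 0.01, 0.08 and 0.13, and none was called. A link between these factors and the members was not tested.

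In comparisons with one cultured type at a time, the same 4 members were called against Th1 and against Th2. The direction of Cox7a1 and Cox6b2, called lower there and against Th17, was fixed by the filter. Tfh against Th1 gave 2 higher and 2 lower members, where 42.8% and 6.16% of all tested genes were called; Tfh against Th2 gave 2 and 2, where 42.8% and 6.89% were called. Tfh against Th17 gave 3 higher and 3 lower, where 41.8% and 6.17% were called. These comparisons share the Tfh arrays. After quantile normalization 0 members were called higher and 11 lower against Th1 (15.6% and 21.2% of all tested genes), 0 and 12 against Th2 (16.1% and 21.3%) and 1 and 11 against Th17 (14% and 20.3%). With each array shifted to the same median 0 and 50 were called against Th1 (14.4% and 28.5% of all tested genes), 0 and 48 against Th2 (15% and 29.1%) and 0 and 43 against Th17 (13.5% and 26%). As deposited without the fold threshold, 12 and 10 passed against Th1 (54.6% and 10.7% of all tested genes), 16 and 7 against Th2 (54.2% and 11.1%) and 18 and 7 against Th17 (54.1% and 10.4%). The 2 added against Th17 were accessory genes of complex I. Ndufb1 measured 7.53 and 7.52 in Tfh, against 8.62 and 8.92 in Th17, a difference of -1.24 (SE 0.29, limma adjusted p = 0.0109). Ndufb2 measured 11.15 and 10.96 in Tfh, against 9.49 and 10.48 in Th17, a difference of 1.07 (SE 0.36, limma adjusted p = 0.0418). Ndufb2 was not called without any 1 of the Tfh arrays, of the Th2 arrays or the first Th17 array, nor in a fit of the Tfh and Th17 arrays alone (limma adjusted p = 0.0820); its difference without the first Th17 array was 0.58. Ndufb1 was not called without either Tfh array (limma adjusted p = 0.0573 and 0.0583). In Tfh against Th2, Ndufa4 was not called without any 1 of the arrays of those groups (limma adjusted p 0.0547 to 0.144), and Cox6b2 was not called without the first Tfh array or the first Th2 array. In Tfh against Th1, leaving out the second Th1 array gave 4 members called higher in place of 2, and in Tfh against Th17, leaving out the second Th17 array gave 5 in place of 3.

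Among the cultured types no member was called, where 1.24% of all tested genes were called either way in Th1 against Th2, 0.143% in Th1 against Th17 and 0.671% in Th2 against Th17. At an unadjusted limma p below 0.05, without a fold threshold, 3, 3 and 4 of 77 members passed in these comparisons, against 1754, 1087 and 1510 of the 11178 tested genes. The differences of largest size were Cox6b2 in Th1 against Th2 (1.04, SE 0.58, limma adjusted p = 0.466), Cox7a1 in Th1 against Th17 (-0.80, SE 0.19, limma adjusted p = 0.259) and Cox7c in Th2 against Th17 (0.79, SE 0.44, limma adjusted p = 0.511). The 95% interval lay within 1 log2 unit of 0 for 71, 69 and 70 of the 77 members, against 58.0%, 61.9% and 58.8% of all tested genes, so that for the other members a 2-fold difference was not detectable or was left inside the interval.

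Arrays of one group differed more for some members than the cultured types did. Cox6b2 had the widest gap, 6.26 and 4.66 in Th17, followed by Cox7c in Th1 (6.91 and 8.05), Ndufa5 in Th1 (11.31 and 12.35) and Ndufb2 in Th17 (9.49 and 10.48). In Th1, 66 of 77 members were higher on the second array, against 55.2% of all tested genes, with a median gap of 0.25 log2 units. In Th17, 59 of 77 were higher on the second array, against 45.3% of all tested genes, and in Th2 and Tfh 21 and 19 of 77 were, against 42.7% and 39.2% of all tested genes. The glycolysis genes went the other way on the Th1 arrays, with 3 of 19 higher on the second and a median gap of -0.63, and in Th17, with 6 of 19 and a median gap of -0.50. Mitochondrial ribosomal protein genes had 63 of 76 higher on the second Th1 array but 36 of 76 on the second Th17 array.

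**Figure D4:**
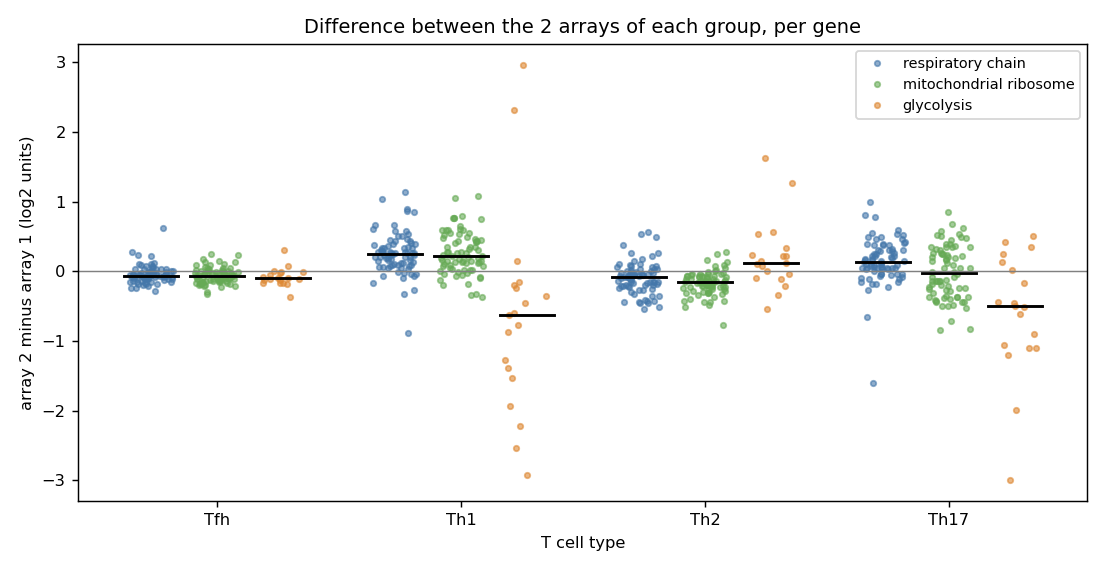
Difference between the second and the first array of each group (vertical axis, log2 units) for each tested gene of the respiratory chain (77), the mitochondrial ribosome (76) and glycolysis (19), by T cell type (horizontal axis). Points are genes and black bars are medians; in Th1 the respiratory chain median is 0.25 and the glycolysis median -0.63. What the array numbers share between groups is not stated, so a sign marks only which array was higher.

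Other mitochondrial and metabolic lists were counted in Tfh against the mean of the cultured types as deposited, where 43.7% of all tested genes were called higher and 6.66% lower. After quantile normalization those shares were 15.7% and 22%, and with each array shifted to the same median 14.8% and 28.9%. Of 44 tested assembly factors, which build the complexes, 5 were called higher and 3 lower (median 0.35), with 0 and 21 after quantile normalization and 0 and 17 after the median shift. The 3 were Nubpl (-1.69) and Ndufaf4 (-1.06) and Sdhaf3 (-1.35), the last 2 assembly factors of complexes I and II. All 3 were called lower in all 3 scalings. Among 17 genes of the tricarboxylic acid cycle and pyruvate dehydrogenase 1 was called higher, Ogdh (1.84), with 4 lower after quantile normalization and 7 after the median shift. Of 19 mitochondrial biogenesis genes 9 were called higher and 1 lower, shares near those of all tested genes, with 2 and 4 after quantile normalization and 2 and 5 after the median shift. Polg2, a subunit of the mitochondrial DNA polymerase, rose by 3.21 and was called in all 3 scalings. Of 19 glycolysis genes 2 were called higher and 5 lower, among them Hk2 (-2.57), Aldoc (-4.08), Tpi1 (-1.75), Pgk1 (-1.55) and the glucose transporter Slc2a1 (-1.79), which were called lower in all 3 scalings; 0 and 10 of the 19 were called after quantile normalization and 0 and 12 after the median shift. Of 16 tested genes for carriers, channels, import proteins and an ATP synthase inhibitor, 3 were called higher, with 3 called lower after quantile normalization and 8 after the median shift. Of 76 mitochondrial ribosomal protein genes 2 were called higher (median -0.06), with 0 and 42 after quantile normalization and 0 and 52 after the median shift. Of 44 cytosolic ribosomal protein genes 1 was called higher and 1 lower (median 0.01), with 0 and 5 after quantile normalization and 0 and 33 after the median shift.

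Most members were read by several probe sets. Of 50 with more than 1, 46 had several that passed the filter; in 24 of these the probe sets had Tfh differences of the same sign and in 22 of opposite signs, with a median range of 0.49 log2 units. The widest range was for Ndufa12, at 3.73 log2 units.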

How the data were processed

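Values were the deposited log2 values of 45101 probe sets per array. The authors summarized them with GCRMA, per the submitters' processing notes; its version and the arrays normalized together are not given in the sources used here. Probe sets were named through the platform annotation with symbols updated to GRCm38.p6: 34945 had 1 symbol, 932 several, 9160 none, and 64 were controls. One probe set per gene was kept, the one with the highest mean over 8 arrays. The fit used limma 3.58.1 in R 4.3.3 (lmFit, eBayes with trend, 1 coefficient per group) over 11178 tested genes, with Benjamini-Hochberg adjustment over all of them; it was tested on simulated data. Comparisons made numbered 7. The number of arrays limits the precision.

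Members, lists and tests were chosen with earlier results of these data known. Most members are named by rule: landmark subunits and isoform sets, up to 4 called each way per complex, and the 4 largest gaps between arrays of a group. In other comparisons it took up to 4 called each way or else the 2 largest differences, of which the text gives the largest. Ndufs4, Uqcrc2 and Atp5e were named outside the rule. Landmarks not described above differed by -0.10 (Ndufa9), 0.25 (Sdhb), 0.36 (Sdhc), -0.38 (Cox5a) and -0.17 (Cox5b) as deposited. The isoforms Cox6a1 and Cox8a differed by 0.07 and 0.43. Promoters came from the RefSeq table; no protein sequences were used here. Alternatives covered normalization, filter, probe set choice, variance model, fold threshold, replicate block and left-out arrays. The labels do not say whether same-numbered arrays share an animal, culture or batch, and this was not tested. Deviations of same-numbered arrays correlated between -0.002 and 0.268, with the highest values for Th2 with Th17 (0.268) and Th1 with Th17 (0.255).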

Additional observations from a re-analysis of the deposited data

How the results depend on the processing

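Against the mean of the cultured types, the counts of members called higher and lower (2 and 2 as reported) were 0 and 10 after quantile normalization, 0 and 49 with each array shifted to the same median, 4 and 2 with the mean over probe sets, and 20 and 11 without a fold threshold; 1 was called lower with the 65th percentile filter. Tfh against Th1 gave 0 and 11, 0 and 50, 4 higher, 12 and 10, and 1 lower in the same order of settings. Tfh against Th2 gave 0 and 12, 0 and 48, 4 higher, 16 and 7, and 1 lower. Tfh against Th17 gave 1 and 11, 0 and 43 in the 2 scalings, and 18 and 7 without a fold threshold. The cause of these changes was not tested, beyond the fewer genes tested and the looser rule. The labels do not say whether the replicate numbers pair the arrays. With the replicate block the counts against the mean of the cultured types were 2 and 2.

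Leaving out 1 array at a time, counts of 2 and 2 held against the mean of the cultured types; they ran over 2 to 4 higher and 2 to 3 lower against Th1, 1 to 2 higher and 1 to 2 lower against Th2, and 2 to 5 higher and 2 to 3 lower against Th17. No member was called between cultured types under any alternative run.

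The members' median lay 0.77 log2 units below the median gene as deposited (-0.81 to -0.74 when an array was left out), and was -0.39 after quantile normalization, -0.083 without the filter, -0.95 with the stricter filter and -0.59 with the mean over probe sets. Of 43 members with a positive difference as deposited, 41 were negative with each array shifted to the same median, and 15 of these were then called lower. Among the genes named by rule these were Cyc1 (-1.11), Cox6a1 (-1.13) and Atp5g3 (-1.05); Ndufa4 against Th2 (-0.12) and Ndufb2 against Th17 (-0.086), called as deposited, also turned sign there. Signal near the filter limits Cox7a1, Cox6b2 and the untested isoforms.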
